A study of Mus musculus with 9 samples.

Results

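The genes described here are the CD antigens, the numbered surface molecules by which blood cells are typed, as far as the mouse gene symbol itself is a CD number. Members were the genes whose probe sets carried exactly 1 symbol made of Cd, a number and at most 2 further letters or digits, without Cd36, Cd68, Cd2ap and Cd2bp2. This gave 76 genes on 115 probe sets, of 12393 genes on 20380 probe sets with 1 symbol. A probe set had to exceed a scaled signal of 46.7, the 40th percentile of all scaled values, on at least 2 arrays, and 54 members passed, as did 9397 of all genes. The rule reads names only and no measured value. It takes in Cd5l, a secreted protein named after CD5, and leaves out antigens known by other symbols, such as CD41 (Itga2b).

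RNA of primary mouse megakaryocytes was measured on 9 Affymetrix MOE430A arrays. The cells grew out of bone marrow or fetal liver in thrombopoietin, the growth factor of this lineage, and were sorted on high CD41 and on forward scatter, a measure of size. The labels name 4 stages: MKP, the progenitor stage (2 arrays), and MK3, MK4 and MK6 (2, 2 and 3 arrays), with cultures collected on days 3, 4 and 6. The same kind of culture, the factor and the CD41 gate are described for all stages. The labels do not give the day of MKP or the strain. Nor do they give which arrays came from marrow and which from fetal liver, so stage and tissue cannot be told apart. Whether replicate arrays are separate cultures is not stated either, so the p-values weigh differences against a spread that may be technical.

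Megakaryocytes leave the progenitor pool, enlarge by repeated DNA replication without division, and shed platelets. On the way they lose antigens of stem and progenitor cells and carry the adhesion receptors and tetraspanins of platelets. Tetraspanins are small proteins with 4 membrane passes that hold integrins and other receptors in clusters, and many other CD antigens type lymphocytes and macrophages rather than this lineage.

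Itga2b, on whose product the cells were sorted, had scaled signals of 1301 and 979 on the MKP arrays, 977 and 2749 at MK3, 3422 and 2531 at MK4, and 3394, 3678 and 2856 at MK6. It rose from MKP to MK6 by 1.53 ± 0.38 (difference of log2 means ± SE, limma adjusted p = 0.0431). That call was lost in 13 of 20 alternatives, among them 7 of the 9 that left out 1 array (adjusted p up to 0.295), while the difference stayed between 1.33 and 1.73. Of 10 megakaryocyte markers, 8 were on the array and all 8 passed the filter. From MKP to MK6, 3 of the 8 were called higher, Itga2b among them, and 0 lower. Their summed signal was 9109 to 9682 at MKP, 9557 and 20648 at MK3, 17166 to 21016 at MK4 and 16761 to 19852 at MK6. The markers did not all rise. Ppbp read 1723 and 1878 at MKP and 1098, 1640 and 807 at MK6, and Gp9 read 358 and 272 at MKP and 312, 690 and 228 at MK6. Arrays differed in quality: the 3′ to 5′ signal ratio of the beta-actin controls, which is high where RNA is degraded, was 1.49, 1.33 and 3.21 at MK6 and between 0.957 and 1.09 at the earlier stages. The same ratio of the Gapdh controls was 0.996, 1.13 and 3.27 at MK6 and between 0.805 and 0.970 earlier. By Gapdh, only MK6 replicate 3 stood far above the others. Deposited trimmed mean signals ran from 102 to 221 and were lowest on MK6 replicates 1 and 3, before all arrays were scaled to 161. The part of RNA quality in the MK6 differences was not tested. In these bulk samples fewer cells of a type and less RNA per cell cannot be told apart.

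Between MKP and MK6, 8 of the 54 tested members differed at an adjusted p below 0.05, 4 higher and 4 lower at MK6. That is 14.8% of members, against 5.84% of all genes tested (2.81% higher, 3.03% lower). Cd5l, Cd274, Cd200 and Cd151 rose, and Cd177, Cd24a, Cd34 and Cd74 fell. The arrays of the 2 stages did not overlap for 30 of 54 members, 55.6%, where 43.4% of all genes did not overlap. An unadjusted p below 0.05 was reached by 27 members and by 23.9% of all genes. The median difference of the members was 0.37 and that of all genes 0.13, with 39 members above 0 and 15 below, 72.2% above 0 where 59.1% of all genes were. With arrays set to a common median these medians were 0.27 and 0.0051, and 35 members lay above 0 and 19 below. In that fit 2 members were called higher and 5 lower, beside 164 higher and 230 lower of all genes. A value after ± is the SE of a difference of log2 means, or an SD where so named, and folds are on the log2(signal + 15.2) scale, which understates the change of dim genes.

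**Figure D1:**
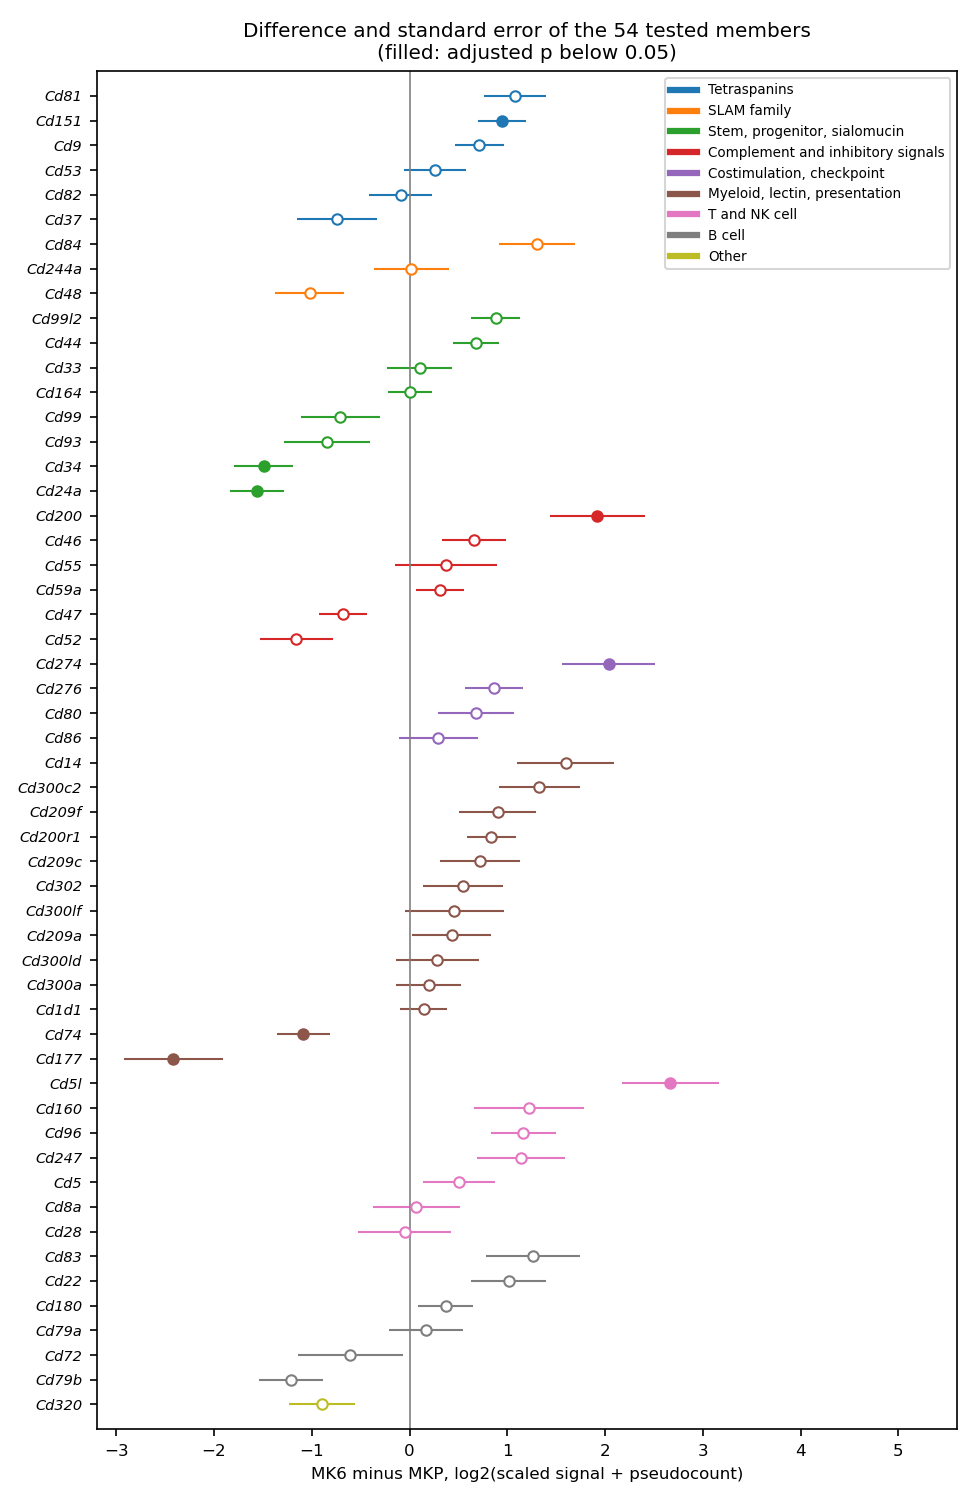
MK6 minus MKP difference (points, x axis, on the log2 scale with the pseudocount) and its standard error (bars) for each of the 54 tested members (y axis), coloured by role, with filled points for the 8 members below an adjusted p of 0.05. Cd5l lies farthest to the right at 2.67 and Cd177 farthest to the left at -2.42.

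These calls rested on few arrays. Without MKP replicate 1 or without MKP replicate 2, 0 members were called by limma, while 18 and 16 members had an unadjusted p below 0.05, and 3 and 11 of all genes were called. Leaving out MK6 replicate 3 left 2 members, Cd177 and Cd84, and leaving out MK6 replicate 2 gave 15. Without MK4 replicate 1 or without MK4 replicate 2, 5 were called, and Cd151, Cd200 and Cd74 were not among them. Without MK6 replicate 1 the calls of Cd151, Cd200 and Cd274 ended. With MK6 replicate 2 as the only MK6 array, an alternative chosen after the data were seen, 0 members were called (14 at an unadjusted p below 0.05), and with MK6 replicate 1 as the only one, 21. Apart from the fits without an MKP array, these counts stand without the share of all genes called. They do not set the members apart from other genes. Each of the 8 called members kept its direction in all 20 alternatives that were run. In the fits that left out arrays this was fixed beforehand, because the MKP and MK6 arrays overlapped for none of the 8.

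Among the stem, progenitor and sialomucin antigens, 2 of 8 fell, none rose, and the median difference was -0.35. CD34, the mucin-like antigen of blood stem and progenitor cells, had scaled signals of 321 and 448 at MKP, 94.5 and 117 at MK3, 184 and 212 at MK4, and 78.8, 163 and 149.8 at MK6. Both MKP arrays lay above every later array, and the lowest value was on an MK6 array. The log2 mean was 8.63 ± 0.33 (SD, n = 2) at MKP and 7.13 ± 0.50 (SD, n = 3) at MK6, a fall of 1.49 ± 0.30 or 2.81-fold (limma adjusted p = 0.020). From MKP to MK3 the Cd34 difference was -1.71 ± 0.33 (limma adjusted p = 0.0855) and from MK3 to MK4 it was 0.82 ± 0.33 (adjusted p = 0.999), and neither step was called.

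Cd24a encodes a short, heavily glycosylated protein anchored by lipid on immature blood cells. Its signals were 542 and 659 at MKP, 313 and 482 at MK3, 251 and 294 at MK4, and 166, 266 and 161 at MK6. Every later array lay below both MKP arrays. The fall to MK6 was 1.56 ± 0.28, from 9.26 ± 0.19 (SD, n = 2) to 7.70 ± 0.38 (SD, n = 3), or 2.95-fold (limma adjusted p = 0.0131). A second Cd24a probe set also fell, by 1.99 ± 0.31 (limma adjusted p = 0.00805 over all probe sets), and the dimmest one differed by -1.33 ± 0.40 (adjusted p = 0.0709).

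The other progenitor antigens did not pass the test. Cd93, a C-type lectin-like antigen of early blood and endothelial cells, differed by -0.84 ± 0.44, and its highest signal, 1308, was on MK3 replicate 1. Cd99l2, a relative of the adhesion molecule CD99, had signals of 64.4 and 57.3 at MKP and 102, 131 and 144 at MK6, which did not overlap (0.88 ± 0.25, limma adjusted p = 0.0672). Cd164, a sialomucin, differed by 0.0039 ± 0.23, and by -0.12 with a common median.

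Cd44, the receptor for hyaluronan, gave opposite signs on its probe sets. The brighter probe set read 1032 and 1006 at MKP and 1989, 1372 and 1618 at MK6 (0.68 ± 0.23, limma adjusted p = 0.112). The other read 705 and 642 at MKP and 375, 326 and 168 at MK6 (-1.25 ± 0.35, limma adjusted p = 0.0586 over all probe sets). In both, the MKP and MK6 arrays did not overlap, so the direction for Cd44 depends on which probes are read. Probe sets of Cd28, Cd37, Cd47 and Cd99l2 also differed in sign between MKP and MK6. For Cd47, 3 bright probe sets lay between -0.68 and -0.55 and a dim one at 0.68 ± 0.39.

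**Figure D2:**
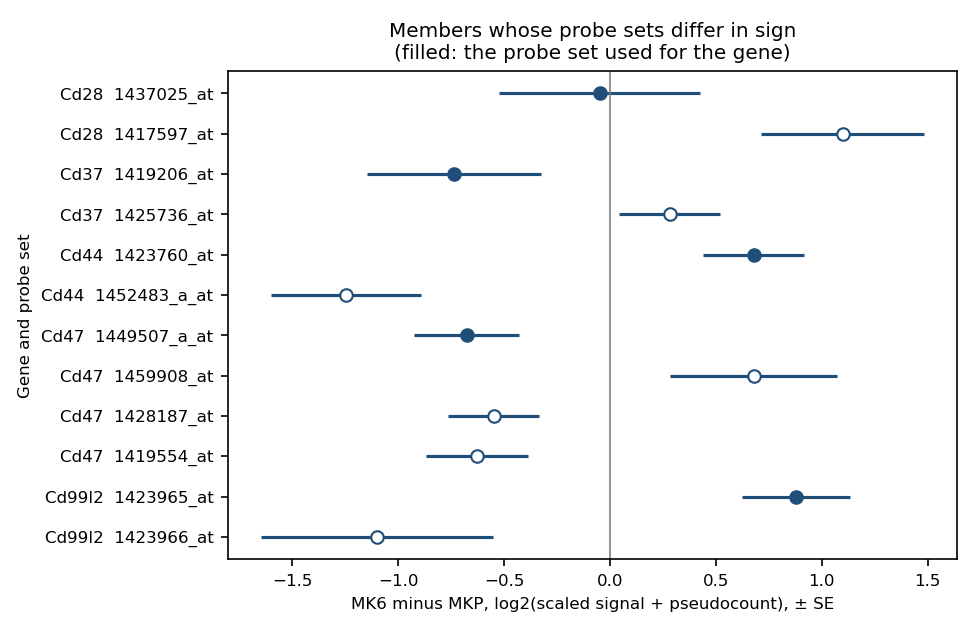
MK6 minus MKP difference with its standard error (x axis, log2 scale) for every tested probe set of the 5 members whose probe sets differ in sign (y axis), filled where the probe set stands for the gene. For Cd44 the points lie at 0.68 and -1.25.

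Of 6 tetraspanins 1 rose and none fell, with a median difference of 0.49. Cd151, which binds laminin-binding integrins and is present on platelets, had signals of 204 and 215 at MKP, 288 and 472 at MK3, 325 and 364 at MK4, and 475, 379 and 409 at MK6. Both MKP arrays lay below all others. Cd151 rose by 0.95 ± 0.25, from 7.81 ± 0.049 (SD, n = 2) to 8.76 ± 0.16 (SD, n = 3), or 1.93-fold (limma adjusted p = 0.0482). Its other 5 tested probe sets all differed in the same direction, by 0.29 to 1.02, and none of them was called.

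Cd9, a tetraspanin abundant on platelets, had signals of 1065 and 1045 at MKP, 1862 and 2503 at MK3, 1911 and 2547 at MK4, and 1849, 1887 and 1509 at MK6. All 7 later arrays exceeded both MKP arrays. The differences, 1.02 ± 0.27 from MKP to MK3 (limma adjusted p = 0.181) and 0.71 ± 0.25 from MKP to MK6 (adjusted p = 0.114), did not pass the test. Cd81, a tetraspanin found on many cell types, had signals of 798 and 779 at MKP, 423 and 877 at MK3, 898 and 1407 at MK4, and 1561, 2006 and 1518 at MK6. Every MK6 array lay above every earlier one (1.08 ± 0.32 from MKP, limma adjusted p = 0.0753). Cd53, a tetraspanin of leukocytes, read 1350.3 and 1319 at MKP against 2166, 1365 and 1384 at MK6. All 3 MK6 arrays lay above both MKP arrays, by little on replicates 2 and 3, and the difference was 0.26 ± 0.32.

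The SLAM family, receptors that bind one another between blood cells, had 3 tested members and no call. Cd84, a SLAM receptor of platelets that binds itself, read 114 and 139.7 at MKP, 327 and 432 at MK3, 209 and 379 at MK4, and 480.3, 425 and 179.6 at MK6. The MKP arrays were the lowest, and the MK6 arrays spread widely (1.30 ± 0.39, limma adjusted p = 0.0780). Cd48, the lipid-anchored ligand of CD244, read 533 and 425 at MKP and 255, 195 and 235 at MK6, with MK3 replicate 1 highest at 767 (-1.02 ± 0.35, limma adjusted p = 0.112). Cd244a differed by 0.019 ± 0.38, and by -0.090 with a common median and -0.10 with quantile normalization.

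Among proteins that control complement or tell phagocytes and lymphocytes to hold back, 1 of 6 tested rose and none fell. Cd200, whose product restrains myeloid cells through the CD200 receptor, had signals of 20.7 and 33.2 at MKP, 64.0 and 44.9 at MK3, 57.8 and 118 at MK4, and 251, 61.6 and 176 at MK6. Both MKP arrays lay under the filter of 46.7, and every MK6 array lay over it. Cd200 rose by 1.92 ± 0.48, from 5.38 ± 0.31 (SD, n = 2) to 7.30 ± 0.93 (SD, n = 3) (limma adjusted p = 0.0438). It passed the filter only through later stages, in which it is high, and its call ended both with no filter (limma adjusted p = 0.0680) and with the stricter one (0.0511). With MK6 replicate 2 as the only MK6 array the difference was 0.88 (limma adjusted p = 0.440). Cd200r1, the receptor itself, lay at 115 to 170 on the MKP arrays and at 212 to 330 on the MK6 arrays without a call (0.84 ± 0.26, limma adjusted p = 0.0817).

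Cd47, which signals phagocytes not to engulf a cell, read 3351 and 2771 at MKP, 2834 and 2671 at MK3, 2648 and 2597 at MK4, and 1636, 2322 and 1807 at MK6. Every MK6 array was below every earlier array (-0.68 ± 0.25, limma adjusted p = 0.127). Cd52, a lipid-anchored lymphocyte antigen, read 957 and 1008 at MKP and 352, 531 and 431 at MK6 (-1.16 ± 0.38, limma adjusted p = 0.0989). Between these stages MK3 and MK4 ranged from 534 to 1741. Cd46, a complement regulator, differed by 0.66 ± 0.33.

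All 4 costimulatory and checkpoint ligands lay above 0 in MK6 minus MKP, and 1 was called. Cd274 encodes PD-L1, the ligand that restrains T cells through PD-1. Its signals were 138 and 115 at MKP, 188 and 152 at MK3, 132 and 617 at MK4, and 747, 475 and 507 at MK6. MK4 replicate 2 and the MK6 arrays were high, and the remaining 5 arrays lay between 115 and 188. Cd274 rose by 2.04 ± 0.48, from 7.14 ± 0.17 (SD, n = 2) to 9.18 ± 0.34 (SD, n = 3), or 4.10-fold (limma adjusted p = 0.0338). The other ligands differed by 0.86 ± 0.30 (Cd276, B7-H3), 0.68 ± 0.39 (Cd80) and 0.29 ± 0.40 (Cd86), and none passed the test. Cd276 read 32.7 and 32.2 at MKP, under the filter, and passed it only through later stages, in which it is higher. Cd86 was at -0.084 without MK6 replicate 1.

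In the largest group, the myeloid, lectin and antigen presentation proteins, 13 of 20 members were tested, 2 fell and none rose, although 11 of the 13 differences were above 0. Cd177, a lipid-anchored glycoprotein of neutrophils, had signals of 238 and 255 at MKP, 269.5 and 285 at MK3, 73.9 and 75.2 at MK4, and 52.0, 74.8 and 4.27 at MK6. The MKP and MK3 arrays formed a high level and the MK4 and MK6 arrays a low one, with MK6 replicate 3 below the pseudocount. Cd177 fell by 2.42 ± 0.51, from 8.03 ± 0.066 (SD, n = 2) to 5.61 ± 1.17 (SD, n = 3), or 5.34-fold (limma adjusted p = 0.0227). Without MK6 replicate 3, the array with the highest actin ratio, the fall was 1.75 (limma adjusted p = 0.0250). The step from MK3 to MK4, -1.70 ± 0.56, was not called (adjusted p = 0.999). Of 10 neutrophil markers, 5 fell from MKP to MK6 and none rose, and the summed signal of the 10 was 38408 to 46468 at MKP, 34628 to 34910 at MK3, 25669 to 27215 at MK4 and 6917 to 28591 at MK6. All 10 passed the filter. Mmp8, at 1550 and 1393 at MKP, read 2392 on MK6 replicate 1, and the markers' part in the Cd177 result was not tested.

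Cd74 encodes the invariant chain that escorts MHC class II molecules. It read 197 and 205 at MKP, 467 and 319.5 at MK3, 172 and 169 at MK4, and 122, 74.0 and 71.8 at MK6. The stages did not overlap, with MK3 highest and MK6 lowest. Cd74 fell from MKP to MK6 by 1.09 ± 0.27, from 7.76 ± 0.038 (SD, n = 2) to 6.67 ± 0.37 (SD, n = 3), or 2.12-fold (limma adjusted p = 0.0411). With MK6 replicate 1 as the only MK6 array the difference was -0.66 (limma adjusted p = 0.126). Its steps were 0.89 ± 0.29, -1.11 ± 0.29 and -0.86 ± 0.27, none of them called.

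Cd14, the co-receptor for bacterial lipopolysaccharide on monocytes, read 1037 and 769.5 at MKP, 1369 and 725 at MK3, 1128 and 2351 at MK4, and 4635, 1359.7 and 3224 at MK6. The MKP and MK6 arrays did not overlap, but the MK6 arrays spread widely (1.60 ± 0.50, limma adjusted p = 0.0873). Cd300c2, a receptor of the CD300 family on myeloid cells, differed by 1.33 ± 0.42 (limma adjusted p = 0.0897) and also reached 1247 on MK3 replicate 1.

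Cd5l stood in the list of T cell and NK cell antigens by its name, but its product is a scavenger-receptor protein secreted by tissue macrophages. Its signals were 70.9 and 72.7 at MKP, 766 and 952 at MK3, 391 and 1768 at MK4, and 464, 769.8 and 432 at MK6. All later arrays lay far above the MKP arrays, with no further ordering of MK3, MK4 and MK6. Cd5l rose from MKP to MK6 by 2.67 ± 0.49, from 6.44 ± 0.022 (SD, n = 2) to 9.11 ± 0.44 (SD, n = 3), or 6.35-fold (limma adjusted p = 0.0152). From MKP to MK3 the difference was 3.32 ± 0.54 (limma adjusted p = 0.0617).

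Macrophage markers varied beside Cd5l. The summed signal of 9 macrophage markers, all of which passed the filter, was 4065 to 4502 at MKP, 10860 to 18332 at MK3, 6053 to 10464 at MK4 and 5390 to 10431 at MK6. Of the 9, Ctss was called higher at MK6 than at MKP, and none was called lower. Ctss read 1259 and 1360 at MKP and 7658, 3465 and 4042 at MK6, where it made up most of the sum. Csf1r read 2099 and 1505 at MKP and 1331, 724 and 782 at MK6. The markers did not move as 1 block. C1qa read 136 and 155 at MKP and 17.9, 157 and 6.06 at MK6, and Mrc1 read 73.2 and 81.1 at MKP and 261, 183 and 147 at MK6. Their part in the Cd5l result was not tested.

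**Figure D3:**
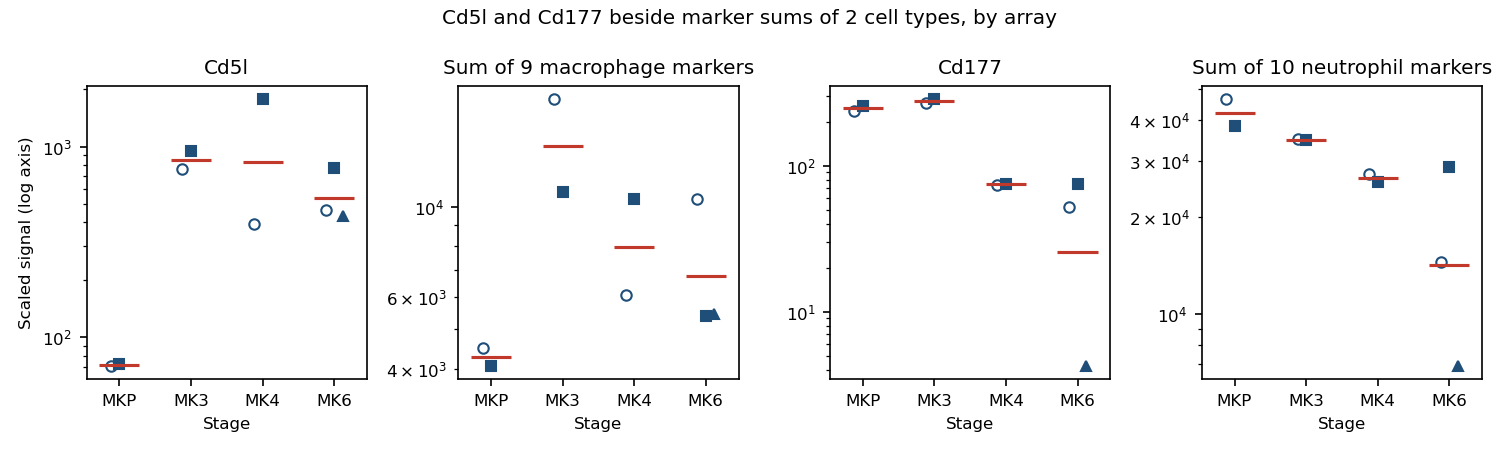
Scaled signal (y axes, log scale) by stage (x axes) of Cd5l, the sum of 9 macrophage markers, Cd177 and the sum of 10 neutrophil markers, with an open circle for replicate 1, a square for replicate 2, a triangle for replicate 3 and a bar at the geometric mean. The macrophage sum peaked at MK3, and the neutrophil sum was lowest, 6917, on MK6 replicate 3, where Cd177 was 4.27. At MK6 most of the macrophage sum was Ctss.

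The T cell and NK cell list otherwise held 6 tested members, none called. Cd96, a receptor of NK and T cells, read 80.9 and 55.7 at MKP and 221, 111 and 198 at MK6, and the 4 MK3 and MK4 arrays lay between 50.7 and 78.8 (1.17 ± 0.33, limma adjusted p = 0.0661). Cd247, the zeta chain of the T cell receptor, differed by 1.14 ± 0.45, and Cd160, a lipid-anchored NK cell receptor, by 1.22 ± 0.56. These were dim probe sets, with MKP signals of Cd247 at 25.5 and 16.1. Cd247 exceeded the filter on only 2 arrays, both at MK6 (109 and 51.0). It was thus tested only through the stage in which it is high. Cd5, Cd8a and Cd28 passed the filter without a call, and the other 11 members of the list, among them Cd3d, Cd3e, Cd3g, Cd4 and Cd8b1, did not pass it. Of 5 T cell markers on the array, Zap70, Thy1, Lat and Il2rb passed and Bcl11b did not. The summed signal of the 5 was 691 to 982 at MKP, 838 to 1287 at MK3, 1515 to 1763 at MK4 and 1204 to 1329 at MK6. Lat was the brightest of the 5, at 427 and 662 at MKP, 1386 and 1190 at MK4, and 561, 1073 and 859 at MK6. It made up most of the sum at MKP and MK4, so the change between these stages was mostly that of Lat. Zap70 read 159 and 241 at MKP and 276 and 254 at MK4. Between MKP and MK6, 0 of these markers were called. Their part in these values was not tested.

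Of 7 B cell antigens 6 were tested and none was called. Cd79b, the signalling chain of the B cell receptor, read 119 and 76.2 at MKP and 30.0, 44.1 and 25.7 at MK6 (-1.21 ± 0.33, limma adjusted p = 0.0561), while its partner Cd79a differed by 0.17 ± 0.38, and by -0.020 with quantile normalization. Cd22, an inhibitory receptor of B cells, differed by 1.01 ± 0.38, and Cd83, an activation antigen, by 1.26 ± 0.48, with its highest signal, 319, on MK3 replicate 1. Cd72, an inhibitory receptor of B cells, read 15.4, 31.8 and 107 at MK6, a spread wider than its difference from MKP (-0.61 ± 0.54). Of 9 B cell markers on the array, 5 passed the filter (Ms4a1, Blk, Blnk, Ighm and Igll1) and 4 did not (Pax5, Ebf1, Vpreb1 and Fcrla). Their summed signal was 263 to 308 at MKP and 336 to 945 at MK6, none of them was called, and their part in these values was not tested. Cd320, the receptor for transcobalamin, stood outside these groups and differed by -0.90 ± 0.34 (limma adjusted p = 0.137).

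**Figure D4:**
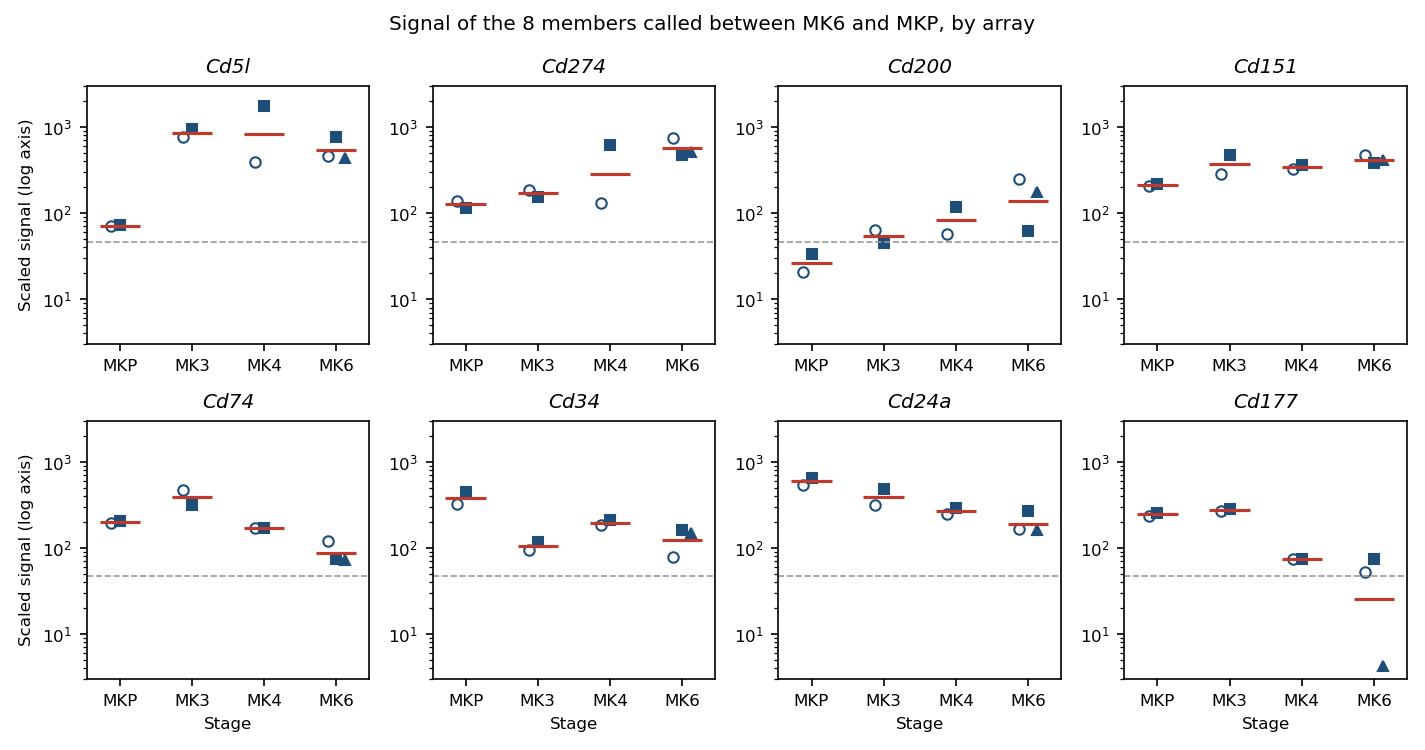
Scaled signal on each array (y axis, log scale) by stage (x axis) of the 8 members called between MKP and MK6, with symbols for replicates 1 to 3, a bar at the geometric mean of each stage and a dashed line at the filter of 46.7. Cd5l lay at 70.9 and 72.7 at MKP and at 391 or more on all later arrays, and Cd177 lay at 238 and 255 at MKP and at 4.27 to 74.8 at MK6.

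No member was called in a single step of the course. From MKP to MK3, limma called 0 of 54 members and 0.0639% of all genes, while 13 members and 9.89% of genes had an unadjusted p below 0.05. From MK3 to MK4 it called 0 members and 0.0106% of genes, with 5 members and 3.66% of genes at that unadjusted p. From MK4 to MK6 it called 0 members and 0.0213% of genes, with 5 members and 10.6% of genes unadjusted. The members whose arrays did not overlap numbered 24 in the first step, 16 in the second and 18 in the last, against 45.9%, 30.2% and 24.7% of all genes. A fit of MKP and MK3 alone called Cd5l and Cd84 higher and Cd34 lower at MK3. Like the F test counts below with an array left out, these calls stand without the share of all genes called. They do not set the members apart from other genes. An F test over the 3 steps called 5 members, 9.26% against 2.86% of all genes: Cd74 (limma adjusted p = 0.0225), Cd5l (0.0263), Cd177 (0.0413), Cd24a (0.0459) and Cd34 (0.0466). Each of these 5 had also been called between MKP and MK6, with which the F test shares its arrays, and 46 members were called nowhere. Without MKP replicate 1 or 2 the F test called 0 members (14 and 11 unadjusted), and without MK6 replicate 3 it called Cd177 alone. It called 2 members without MK3 replicate 1 and 3 without either MK4 array.

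Arrays of a stage disagreed more for the members at MK6 than at MKP. The median SD of a member on the log2 scale was 0.19 at MKP, 0.34 at MK3, 0.23 at MK4 and 0.52 at MK6, against 0.16, 0.25, 0.19 and 0.38 for all genes. MK6 replicate 1 held the highest signal of 25 of the 54 members, 46.3%, and of 32.2% of all genes. MK3 replicate 1 held the highest of 12 members, 22.2%, among them Cd48, Cd52, Cd74, Cd83 and Cd93, and of 10.9% of all genes. MK4 replicate 1 held that of 0 members and of 4.31% of all genes.

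**Figure D5:**
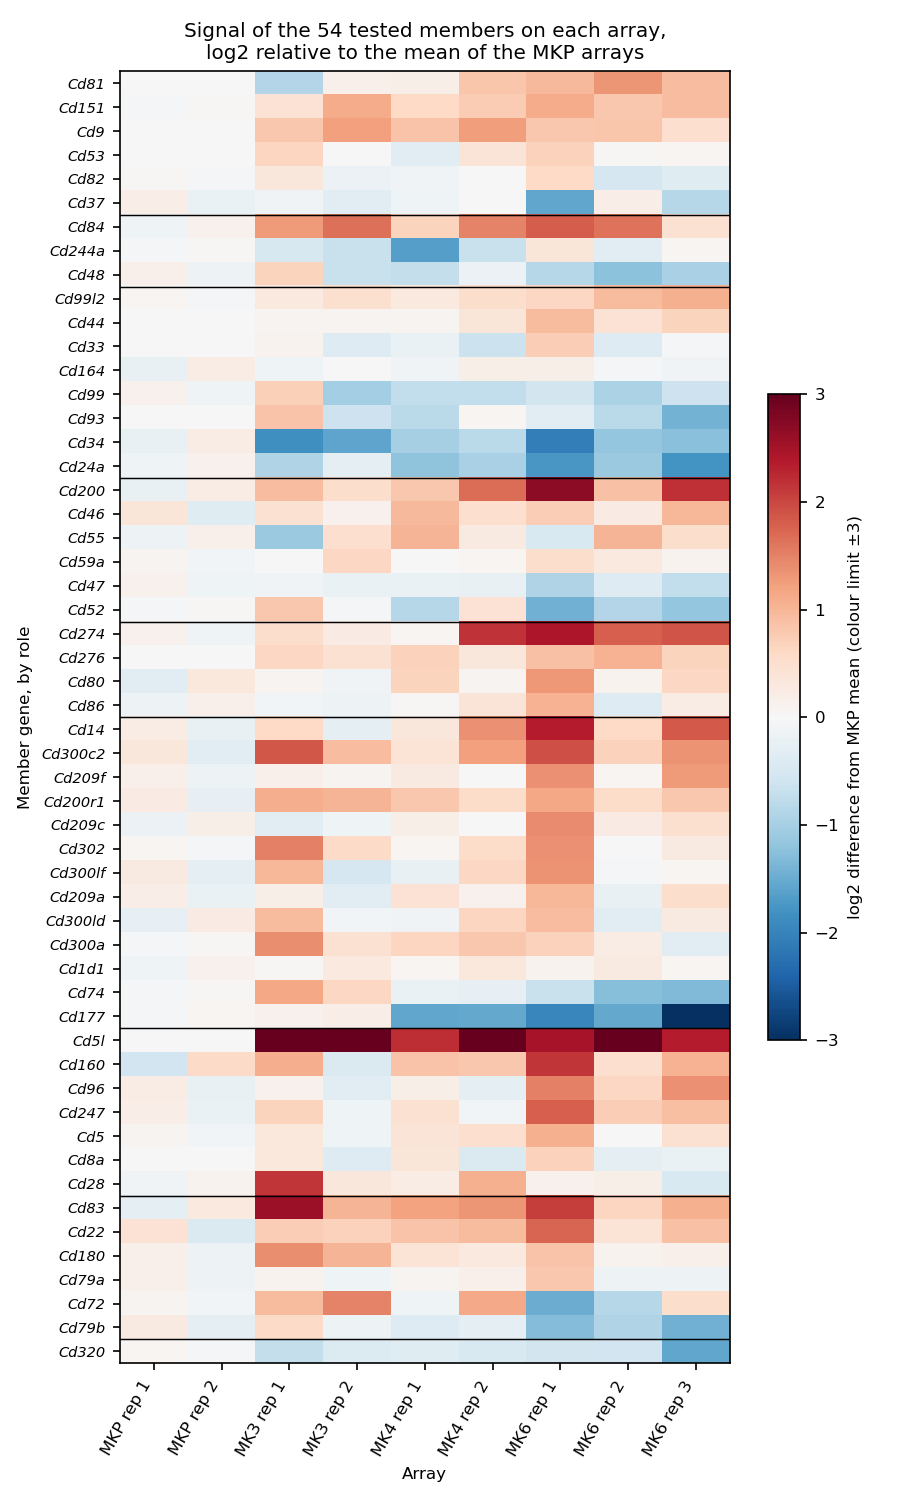
Signal of the 54 tested members (rows, grouped by role) on each of the 9 arrays (columns), as the log2 difference from the mean of the MKP arrays, with colours limited at 3 in either direction. MK6 replicate 1 was the highest array for 25 members and MK3 replicate 1 for 12.

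Promoters are shown for the called members with the largest rises and falls that the RefSeq promoter table (build GRCm38.p6) holds, 250 bases before to 50 after the gene's start, in the gene's direction. Capitals mark GATA motifs, the sequence read by the erythroid and megakaryocyte factor GATA-1, searched with a leading A as AGATAA or as AGATAG, and with a leading T as TGATAA or as TGATAG, on both strands. Cd5l lies at chr3:87357631-87357930 (+), Cd274 at chr19:29367188-29367487 (+), Cd34 at chr1:194938571-194938870 (+) and Cd177 at chr7:24760262-24760561 (-).
Cd5l: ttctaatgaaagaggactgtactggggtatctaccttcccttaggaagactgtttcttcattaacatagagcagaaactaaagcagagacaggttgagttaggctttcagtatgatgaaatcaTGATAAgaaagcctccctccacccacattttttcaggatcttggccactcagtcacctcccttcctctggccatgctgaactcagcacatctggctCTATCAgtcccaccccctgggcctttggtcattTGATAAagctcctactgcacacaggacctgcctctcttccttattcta
Cd274: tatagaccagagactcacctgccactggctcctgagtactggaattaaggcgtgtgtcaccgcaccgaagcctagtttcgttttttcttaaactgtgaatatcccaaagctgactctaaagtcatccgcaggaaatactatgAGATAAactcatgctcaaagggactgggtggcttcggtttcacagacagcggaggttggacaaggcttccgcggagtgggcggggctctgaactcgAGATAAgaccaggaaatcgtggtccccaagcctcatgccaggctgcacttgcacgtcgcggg
Cd34: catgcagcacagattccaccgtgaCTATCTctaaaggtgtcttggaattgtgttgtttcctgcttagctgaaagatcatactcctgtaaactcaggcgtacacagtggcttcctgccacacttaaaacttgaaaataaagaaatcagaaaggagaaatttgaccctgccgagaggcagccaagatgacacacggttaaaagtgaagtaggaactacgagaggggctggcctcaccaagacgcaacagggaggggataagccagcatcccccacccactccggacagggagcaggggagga
Cd177: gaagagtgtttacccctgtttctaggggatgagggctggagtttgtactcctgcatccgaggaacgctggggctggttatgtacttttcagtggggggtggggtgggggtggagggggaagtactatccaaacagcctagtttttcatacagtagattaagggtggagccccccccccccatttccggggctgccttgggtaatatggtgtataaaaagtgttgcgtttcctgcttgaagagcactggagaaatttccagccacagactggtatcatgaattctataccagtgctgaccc
The promoter of Cd5l held 3 such matches, that of Cd274 held 2, that of Cd34 held 1 and that of Cd177 held 0. Of the called members not shown, Cd200, which rose, held 1, and Cd151, which also rose, held 0 in each of its promoters. Of the 50 promoters of tested members in the table, which belong to 42 members, 26.0% held a GATA match, against 29.8% of all 32851 promoters. TGANTCA, searched as a short form of the NF-E2 motif, was in 8.0% of the members' promoters and 7.81% of all, and the ETS motif, CCGGAAG, in 8.0% and 8.86%. Neither was in any of the promoters shown, and longer forms of the NF-E2 motif were not searched. The members' shares were close to those of all promoters, and a match describes letters only.

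CD antigens whose genes carry other symbols were read from a list of 88 genes, of which 77 were tested. Between MKP and MK6, 4 rose and 7 fell, 14.3% in all, with a median difference of -0.051. The largest differences were Il7r, the interleukin-7 receptor (CD127), which rose by 3.31 ± 0.51, and Csf3r, the granulocyte colony-stimulating factor receptor (CD114), which fell by 2.39 ± 0.35. Sdc1, a proteoglycan (CD138), rose by 2.27 ± 0.46 and Anpep, an aminopeptidase (CD13), by 2.15 ± 0.46. The share called in this list and among the 54 members, 14.8%, lay close together, beside 5.84% of all genes tested. Their directions differed: 44.2% of this list lay above 0, against 72.2% of the members and 59.1% of all genes.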

How the data were processed

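Intensities of 9 single-colour arrays were used as deposited on a linear scale. They came from MAS5 per the submitters' processing notes, with no version or settings given in the sources used here. Of 22690 probe sets, 64 controls, 691 with several symbols and 1555 with none were left out. Each array was scaled to a trimmed mean (2% off each end) of 161, since deposited levels differed. Values were log2(signal + 15.2), with the 20th percentile of scaled values as the pseudocount. Of a gene's probe sets passing the filter, the one with the highest mean stood for it. All arrays entered 1 limma fit (version 3.58.1, R 4.3.3) with a mean per stage and an intensity trend, leaving 5 residual degrees of freedom, with Benjamini-Hochberg adjustment over 9397 genes. The number of arrays limits the precision.

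Members, role groups and marker lists were chosen with earlier results of these data known. Named are the called members, the 10 brightest, the 4 largest differences per role group and members whose probe sets disagree, besides Cd200r1, Cd79a and Cd164, named after their values were seen. Outside the members, Itga2b and the 4 largest differences among CD antigens under other symbols are named. Replicates are numbered in the order of the sample records. Levels of different probe sets are not compared. Probe sets shared by near-identical genes (Cd1d1, Cd209 family, Cd55) are uncertain.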

Additional observations from a re-analysis of the deposited data

How the results depend on the processing

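The counts of called members and the MK6 minus MKP difference of each named gene were recomputed with another pseudocount, filter, scaling, choice of probe sets, variance model or set of arrays, up to 20 alternatives each. Role-group counts and medians were not. The counts of called members below stand without the share of all genes called in each fit. They do not set the members apart from other genes. The count of 8 called members was 6 to 8 under other pseudocounts, filters, scalings, every probe set on its own and a fit of the 2 stages alone. Not all were the same genes: the 2-stage fit shared 5 of the 8 (adding Cd48, Cd52 and Cd81), the fit without a filter shared 5 (adding Cd3d), and the common median shared 6 (adding Cd79b). The count was 4 without the intensity trend, 21 without MK6 replicates 2 and 3 and 0 without MK6 replicates 1 and 3, the last chosen after the data were seen. Leaving out 1 array at a time gave 0 to 15. In the F test, 5 called members became 3 with a common median or a halved pseudocount, 2 without the filter or with quantile normalization, 1 without the trend or without MK6 replicates 1 and 3, and 10 without MK6 replicates 2 and 3, and leaving out 1 array gave 0 to 7. For MK3 against MKP, 0 became 3 in a fit of the 2 stages and 2 without either pair of MK6 replicates (2 and 3, or 1 and 3), and 0 to 3 with 1 array left out. For MK4 against MK3, 0 became 1 without either pair, and for MK6 against MK4 it became 1 without MK6 replicates 2 and 3. In both, leaving out 1 array gave 0 throughout, where 3 to 13 and 4 to 16 members had an unadjusted p below 0.05 in limma. The cause of these shifts was not tested.

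Adjusted p over the alternatives ran from 0.00312 to 0.158 for Cd5l, 0.00648 to 0.272 for Cd274, 0.00568 to 0.440 for Cd200, 0.0325 to 0.308 for Cd151, 0.0141 to 0.252 for Cd74, 0.00373 to 0.217 for Cd34, 0.00568 to 0.160 for Cd24a and 0.00228 to 0.189 for Cd177, all from limma. Among the named members, 6 uncalled ones reversed direction in at least 1 alternative. Cd244a went from 0.019 to -0.090 (common median), -0.10 (quantile) and -0.35 (without MK6 replicates 1 and 3), and to -0.15 to 0.20 with 1 array left out. Cd28 went from -0.049 to 0.18 and 0.12 without MK6 replicates 1 and 3 or 2 and 3, and to -0.16 to 0.15 with 1 array left out. Without MK6 replicates 1 and 3, Cd37 was at 0.21 and Cd86 at -0.39, and with 1 array left out Cd86 ranged from -0.084 to 0.64. Cd164 went from 0.0039 to -0.12 (common median) and -0.068 (without MK6 replicates 1 and 3), and to -0.22 to 0.22 with 1 array left out. Cd79a went from 0.17 to -0.020 (quantile) and -0.16 (without MK6 replicates 1 and 3), and to -0.15 to 0.33 with 1 array left out. No paired analysis was possible because the labels give no replicate numbers shared between stages. A stage left with 1 array is assumed to vary like the others.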
